A study of Mus musculus with 3 samples.

Results

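The genes described here encode the membrane sector (V0) and the accessory subunits of the vacuolar ATPase: Atp6v0a1, Atp6v0a2, Tcirg1, Atp6v0b, Atp6v0c, Atp6v0d1, Atp6v0d2, Atp6v0e, Atp6ap1 and Atp6ap2. These 10 genes are defined by their names, among 21631 protein-coding genes (autosomes and chromosome X). For each of them, the Foxp3 peaks over the gene and 5 kb beyond both ends were collected. The peaks come from CUT&RUN, in which an antibody directs a nuclease to its target and the freed DNA fragments are sequenced, in mouse bone marrow-derived macrophages (BMDMs) grown in medium conditioned with M-CSF. The cells of every library were fixed in 0.1% formaldehyde. The series holds 3 samples: Foxp3 replicates 1 and 2, made with an Invitrogen antibody to Foxp3, and 1 isotype IgG sample, which was not analysed here. The series title names stimulation with brain-derived damage-associated molecules (DAMPs), but no label of a single sample mentions it, so the exposure of each library is unknown. Neither genotype nor strain nor age is given in the labels, and nothing says whether the replicates came from separate cultures, so the spread between them may be technical. The files hold peaks and no expression values, so the macrophage label could not be checked against marker genes.

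The vacuolar ATPase is a rotary proton pump. Its cytosolic V1 sector hydrolyses ATP and turns a ring of proteolipid subunits in the V0 sector, which carries protons across the membrane past the a subunit. In macrophages the pump acidifies lysosomes and maturing phagosomes, the compartments in which engulfed material is degraded. Many genes of the lysosome and of this pump are known targets of TFEB and its relatives, which bind an extended E-box called the CLEAR element.

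Replicate 1 held 33294105 fragments and 556535 peaks, and replicate 2 held 34898401 fragments and 95135 peaks. The replicates differed in the number of peaks called at a like depth, and this difference touches every count below. No control library entered the peak calling, and a site that yields fragments with any antibody would be listed too. Fold enrichment is the authors' ratio of the fragments at the summit, plus 1, to a background term from the same library, and it is used here to describe and rank peaks within a library. Its median over the autosomes and X was 4.92 in replicate 1 and 4.0 in replicate 2.

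Sequence upstream of 5 members is shown first, those with a single listed start at or near the annotated 5′ end of the gene. At each of these starts, overlapping peaks of both replicates had summits within 1 kb. An E-box is carried by 3 of the 5 sequences, and by no other of the 8 members with a listed start. Of all promoter windows, which are longer than these sequences and are described below, 7.15% hold that word. For Atp6ap1 the replicate 2 peak lies outside the sequence shown. Each runs from 150 bases before the transcription start to 20 bases from the start onwards, 5′ to 3′ on the strand of the gene, and was read from RefSeq (GRCm38.p6). They are chr4:117887310-117887479 for Atp6v0b and chr8:105566045-105566214 for Atp6v0d1, both on the minus strand, and chr17:26676246-26676415 for Atp6v0e, chrX:74296947-74297116 for Atp6ap1 and chrX:12587609-12587778 for Atp6ap2, all on the plus strand. Capitals mark the E-box word CACGTG in the first 3 and the GC box word GGGCGG, on either strand, in the other two.
Atp6v0b: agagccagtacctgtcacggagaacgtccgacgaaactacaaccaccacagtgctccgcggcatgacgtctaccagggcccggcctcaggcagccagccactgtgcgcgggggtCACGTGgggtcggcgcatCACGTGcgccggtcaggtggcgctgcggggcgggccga
Atp6v0d1: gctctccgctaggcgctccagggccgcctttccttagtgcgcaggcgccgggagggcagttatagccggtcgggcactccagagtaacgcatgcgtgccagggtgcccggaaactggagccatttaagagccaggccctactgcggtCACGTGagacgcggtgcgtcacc
Atp6v0e: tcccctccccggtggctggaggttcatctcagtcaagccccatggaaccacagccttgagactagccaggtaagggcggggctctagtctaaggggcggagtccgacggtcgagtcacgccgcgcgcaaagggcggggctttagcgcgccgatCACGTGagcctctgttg
Atp6ap1: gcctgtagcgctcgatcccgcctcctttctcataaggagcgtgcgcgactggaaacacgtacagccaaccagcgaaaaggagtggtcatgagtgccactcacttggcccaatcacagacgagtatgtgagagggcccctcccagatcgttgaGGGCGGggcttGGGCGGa
Atp6ap2: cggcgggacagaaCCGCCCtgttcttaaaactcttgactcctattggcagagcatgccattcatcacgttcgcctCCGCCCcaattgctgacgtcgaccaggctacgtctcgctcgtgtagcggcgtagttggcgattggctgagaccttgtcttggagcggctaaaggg

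The first question was which of the 10 genes carried peaks, and whether the replicates placed them at the same positions. All 10 members had a peak of replicate 1 in the window, as did 96.6% of all protein-coding genes, and all 10 had a peak of replicate 2, against 83.0% of all genes. A peak of each replicate was thus found over 10 of 10 members (95% exact binomial interval 69.2 to 100%), where the share of all genes was 82.7%. A pair of peaks that overlapped by at least 50% of both lengths was found over 7 members (70.0%, 34.8 to 93.3%), close to the 63.5% of all genes. Intervals cover counting error only. At this number of genes a difference from other genes was not detectable by these rules.

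The next comparison asked how often pairs lay at transcription starts. A start was taken from the RefSeq promoter table for 8 members, and for Atp6v0a2 and Atp6v0d2, which that table does not hold, both annotated gene ends were used. A pair with 50% overlap and both summits within 1 kb of a start was found at 7 of 10 members (70.0%, 34.8 to 93.3%), where the share of all genes was 42.6%. The background share lies inside this interval. With any overlap of at least 1 bp, the count rose to 9 of 10 (90.0%, 55.5 to 99.7%) against 57.0% of all genes, the addition being Atp6v0c and Atp6v0e. Here too the share of all genes lies inside the interval. Atp6v0d2 had none under either rule. Counted as pairs, 8 of 13 with 50% overlap and 11 of 21 with any overlap met the distance rule, and these include the pairs at both gene ends of Atp6v0a2, whose start is not listed. The 10 windows held 135 replicate 1 peaks, of which 20 overlapped a replicate 2 peak, and 32 replicate 2 peaks, of which 21 overlapped a replicate 1 peak. These are 14.8% and 65.6%, against 11.3% and 58.8% of the peaks over any protein-coding gene. Of the peaks of replicate 2, 37.5% had a summit within 1 kb of a start, against 11.1% of the peaks of replicate 1. No such share over the peaks or pairs of all genes is given here. These shares and the counts of pairs at a start therefore do not set the members apart from other genes. The share of peaks paired by 50% overlap was 9.63% in replicate 1 and 40.6% in replicate 2, against 6.66% and 36.2% of the peaks over any protein-coding gene.

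**Figure D1:**
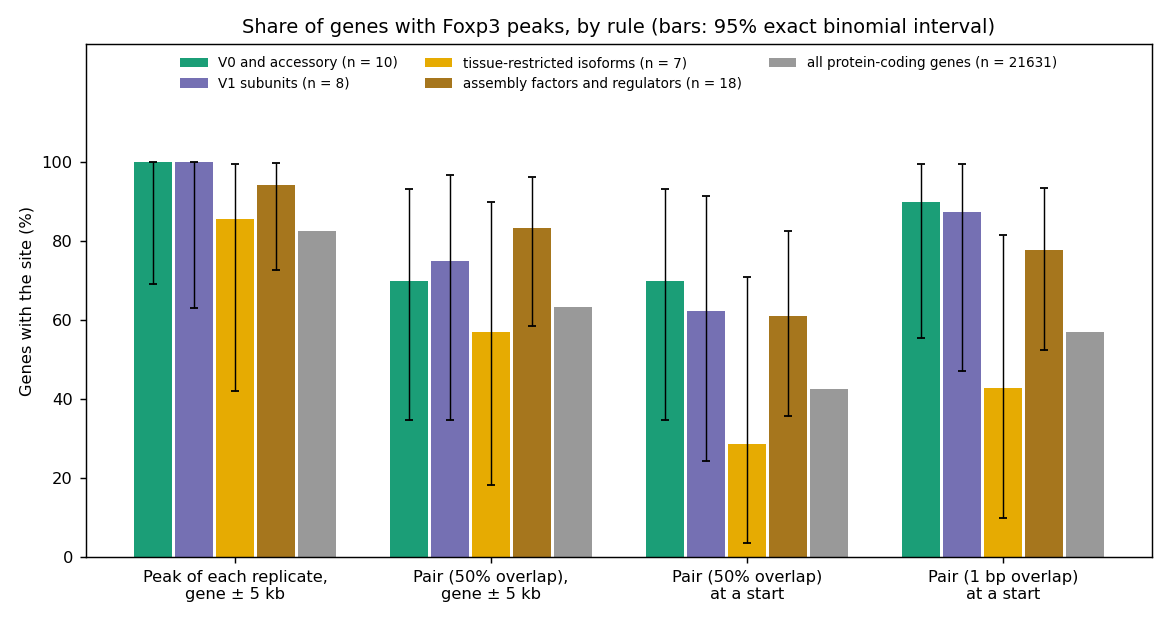
Share of genes (percent, vertical axis) that met each of 4 rules (horizontal axis), for the 10 V0 and accessory genes, 3 other lists of vacuolar ATPase genes and all 21631 protein-coding genes; error bars are 95% exact binomial intervals. The V0 and accessory genes reach 70.0% and 90.0% for pairs at a start. The interval at 50% overlap includes the 42.6% of all genes, and that at 1 bp overlap includes their 57.0%.

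**Figure D2:**
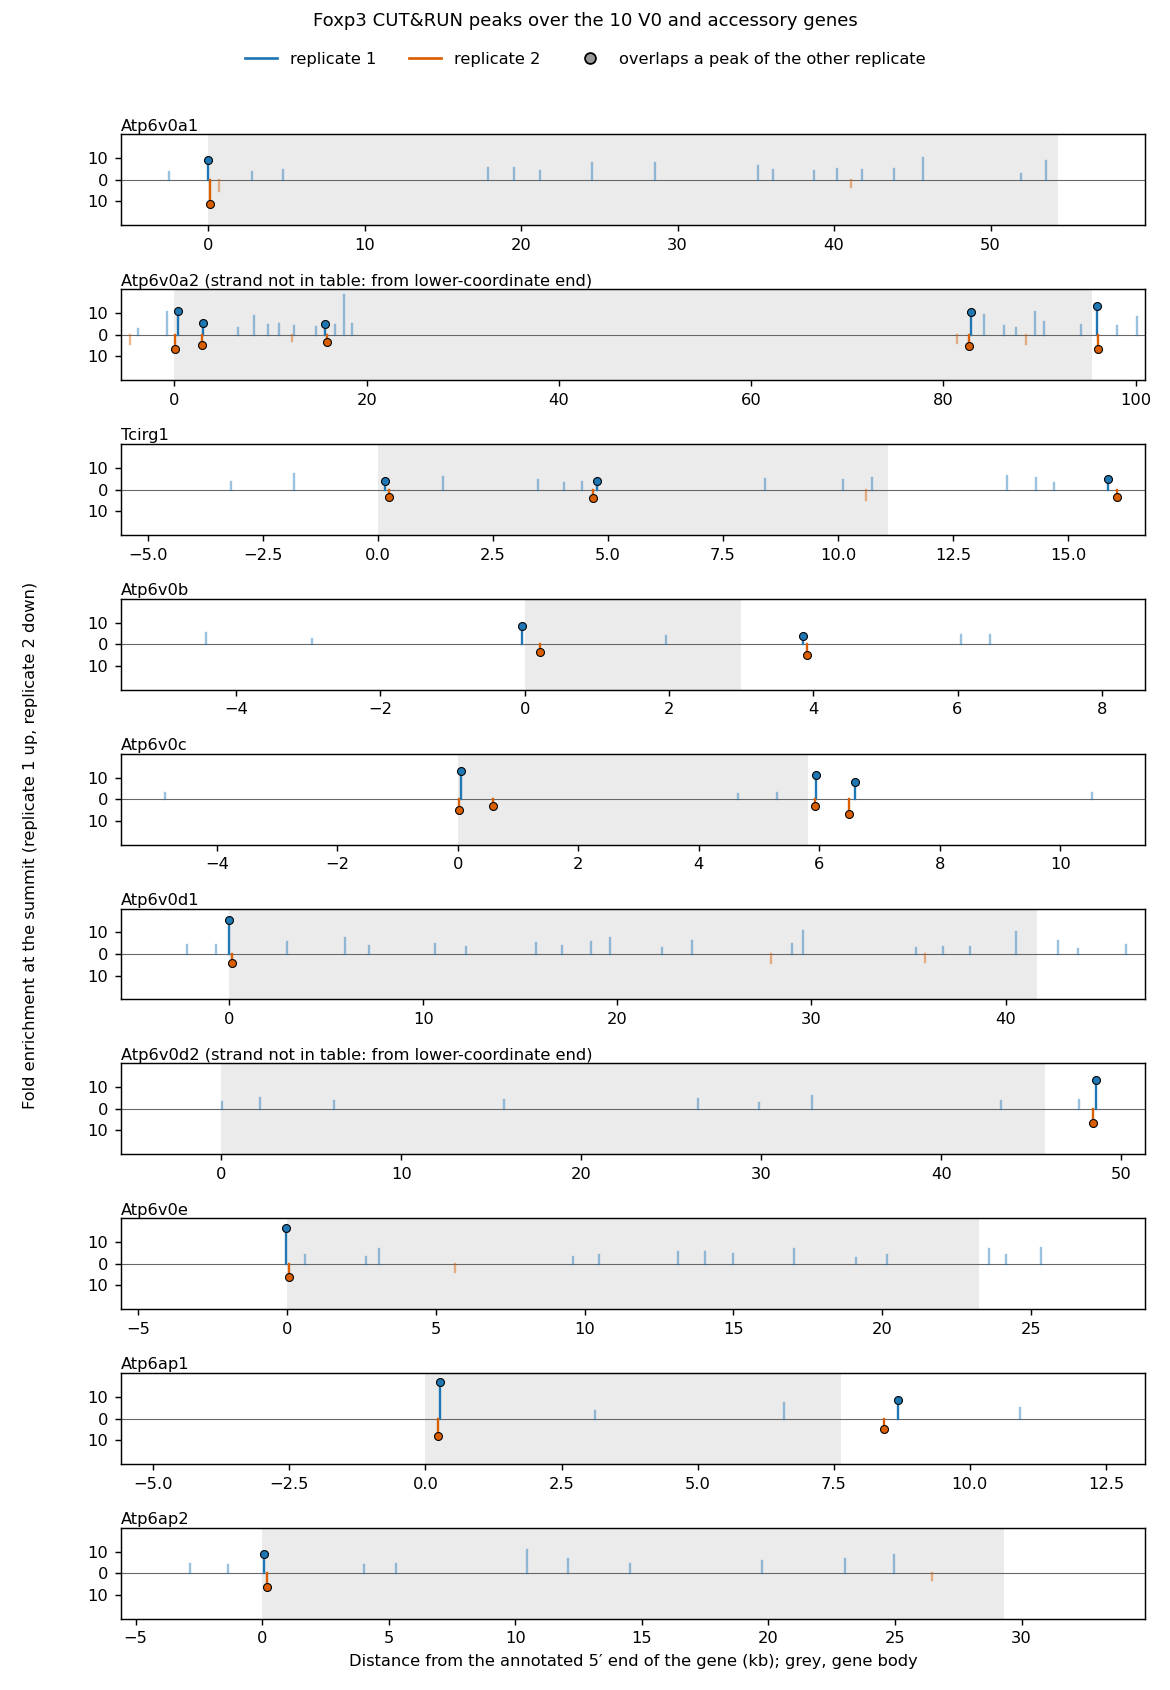
Every peak over the 10 genes and 5 kb beyond, placed by its summit at its distance from the annotated 5′ end (kb, horizontal axis; lower-coordinate end for Atp6v0a2 and Atp6v0d2), with fold enrichment upwards for replicate 1 and downwards for replicate 2; the scale of the horizontal axis differs between panels. Circles mark peaks that overlap a peak of the other replicate, and in 9 panels at least 1 such pair sits near an annotated start or end, while in Atp6v0d2 the only pair lies outside the gene.

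The a subunits, which form the stationary proton path of V0, each had a pair at an annotated end, of very different strength. Atp6v0a1 (gene ID 11975, chromosome 11, 101009422 to 101063719, plus strand) encodes an a isoform known from neurons and present in many tissues. Its pair spanned 101009278 to 101009707 in replicate 1 and 101009313 to 101009634 in replicate 2, with pileups of 33 and 56 fragments at the summits and fold enrichments of 8.99 and 11.2 (mean 10.1 ± 1.55, SD, n = 2). The pair covers the annotated 5′ end of the gene, with summits 8 and 92 bp inside it. The start held in the promoter table is an internal one, and the summits lay 968 and 884 bp upstream of that. This was the only start pair of a member in which replicate 2 had the higher fold. A further peak of replicate 2, with a fold of 5.30, lay 293 bp upstream of the internal start and had no partner. The third replicate 2 peak, from 101050385 to 101050576 with a fold of 3.5, and the other 17 peaks of replicate 1 in the window had none either.

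Atp6v0a2 (gene ID 21871, chromosome 5, 124629052 to 124724455) encodes the a isoform associated with the Golgi and endosomes. It had the most pairs of any member, 5, all with 50% overlap, among 24 peaks of replicate 1 and 9 of replicate 2. The pair at the lower-coordinate end had folds of 10.9 and 6.68 (mean 8.78 ± 2.98, SD, n = 2), with summits 339 and 50 bp inside the gene. The strongest pair, at 13.4 and 6.53 (mean 9.99 ± 4.89, SD, n = 2), lay just beyond the opposite end and also at the annotated end of Dnah10, a gene for an axonemal dynein chain, so it could not be assigned to Atp6v0a2. The other 3 pairs lay inside the gene, with folds of 5.48 and 4.91, 4.95 and 3.53, and 10.5 and 5.10. The highest fold of any member peak, 18.2 in replicate 1 with a pileup of 73 fragments, was also inside Atp6v0a2 and had no counterpart in replicate 2.

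Tcirg1 (gene ID 27060, chromosome 19, 3896050 to 3907133, minus strand) encodes the a3 isoform, which is required for acid secretion by osteoclasts and found on lysosomes of macrophages. It was the member with the densest peaks in replicate 1, 7.11 per 10 kb of window, yet its pairs were the weakest by fold. By −log10 q they were not: its 50% pairs had mean percentiles of 62.03 and 55.2 within the lists, above the 41.45 of a pair inside Atp6v0a2. The promoter table holds 3 starts, and the start pair, from 3906892 to 3907025 and from 3906803 to 3907020, had summits 2 and 85 bp from one of them. Its folds were 4.0 and 3.24 (mean 3.62 ± 0.541, SD, n = 2), with pileups of 42 and 29 fragments. A second pair inside the gene had folds of 3.74 and 3.90. Among the 13728 genes with a 50% pair, only 2.81% had an equal or weaker strongest pair, ranked by the mean of the percentiles of the 2 folds within their lists. Tcirg1 kept no pair when the replicate 1 list was shortened, by fold or by −log10 q, to the length of the replicate 2 list.

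The proteolipid ring, which turns with each ATP cycle, is built from the products of Atp6v0c and Atp6v0b. Atp6v0b (gene ID 114143, chromosome 4, 117884330 to 117887333, minus strand) had a pair over its start, from 117886989 to 117887460 and from 117886968 to 117887426. The peaks overlapped nearly end to end, by 92.8% and 95.4% of their lengths, but their summits were 255 bp apart. Pileups were 115 and 33 fragments and folds 8.59 and 3.55 (mean 6.07 ± 3.57, SD, n = 2). A second pair, with folds of 3.87 and 5.03, lay beyond the 3′ end of Atp6v0b and at the annotated end of B4galt2, a galactosyltransferase gene.

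Atp6v0c (gene ID 11984, chromosome 17, 24163865 to 24169678, minus strand) had 7 peaks of replicate 1 and 4 of replicate 2, and all 4 of the latter overlapped a peak of replicate 1. None of these pairs reached 50% of both lengths. At the start region, a single broad peak of replicate 1, 1048 bp long with a pileup of 91 fragments and a fold of 13.1, spanned 2 peaks of replicate 2 with folds of 4.82 and 3.26. It covered all 3 starts of the promoter table. The overlap was 94.3% and 100% of the replicate 2 peaks and 42.4% and 28.2% of the replicate 1 peak. The other pairs, at 11.0 and 3.05 and at 8.06 and 6.83, lay beyond the 3′ end of Atp6v0c and at the annotated end of Amdhd2, an amino sugar deacetylase gene. RefSeq lists pseudogene copies of Atp6v0c, and how reads shared with them were placed is not given in the labels or headers, so the assignment of peaks over its exons is uncertain.

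The d subunits couple the ring to the central stalk of V1. Atp6v0d1 (gene ID 11972, chromosome 8, 105524461 to 105566064, minus strand), the broadly expressed isoform, had its only pair over the start, from 105565579 to 105566232 and from 105565804 to 105566202. Pileups were 107 and 25 fragments and folds 15.5 and 4.29 (mean 9.89 ± 7.93, SD, n = 2), the widest ratio between replicates of any member pair with 50% overlap, at 3.62. The summits lay 21 bp upstream and 137 bp downstream of the start. The annotated end of Agrp, which encodes a hypothalamic feeding peptide, was within 1 kb of both summits. The other 22 peaks of replicate 1 and 2 of replicate 2 in the window of Atp6v0d1 had no partner.

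Atp6v0d2 (gene ID 242341, chromosome 4, 19876838 to 19922566) encodes the isoform best known from osteoclasts and activated macrophages. No peak of replicate 2 lay over the gene itself. The single peak of replicate 2 in its window was outside the gene, from 19925090 to 19925326, and overlapped a replicate 1 peak from 19925227 to 19925467 by 100 bp, which was 41.5% and 42.2% of their lengths. Their summits lay 2854 and 2689 bp beyond the higher-coordinate end, with pileups of 49 and 33 fragments and folds of 13.2 and 6.68 (mean 9.95 ± 4.63, SD, n = 2). No other protein-coding gene ends within 1 kb of these summits. At the lower-coordinate end replicate 1 alone had a peak, with a pileup of 11 fragments and a fold of 3.17. Both densities were the lowest among the members, 1.79 peaks per 10 kb in replicate 1 and 0.18 in replicate 2, against medians of 3.06 and 0.62 over all genes. The smallest pileup called in replicate 2 was 13 fragments, and no site below that is listed.

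Atp6v0e (gene ID 11974, chromosome 17, 26676396 to 26699647, plus strand) encodes a small membrane subunit of V0. Its start carried the second strongest replicate 1 start peak of the members, from 26676239 to 26676478, with a pileup of 80 fragments and a fold of 16.4. The replicate 2 peak, from 26676289 to 26676823, had a pileup of 35 fragments and a fold of 5.97 (mean of both 11.2 ± 7.38, SD, n = 2). Both contain the start, with summits 31 bp upstream and 60 bp downstream of it. The pair missed the 50% rule because the replicate 2 peak was 535 bp long and the overlap of 190 bp made up 35.5% of it, against 79.2% of the replicate 1 peak.

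The strongest pair of any member lay at an accessory subunit gene. Atp6ap1 (gene ID 54411, chromosome X, 74297097 to 74304721, plus strand) encodes Ac45, which takes part in assembly of V0. Its start pair, from 74296925 to 74297757 and from 74297199 to 74297792, had pileups of 84 and 41 fragments and folds of 16.9 and 7.96 (mean 12.4 ± 6.32, SD, n = 2). Its summits lay 259 and 224 bp downstream of the start, and the replicate 2 peak began past the start base. Of the 13728 genes with a 50% pair, 94.0% had an equal or weaker strongest pair. For the other members with such a pair, that share was 2.81% for Tcirg1, 12.3% for Atp6v0b and 30.6% for Atp6v0d1. It was 53.9% for Atp6ap2, 68.8% for Atp6v0a1 and 75.7% for Atp6v0a2. Over the 13728 genes, the strongest pair had median folds of 11.6 in replicate 1 and 5.5 in replicate 2.

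Atp6ap2 (gene ID 70495, chromosome X, 12587759 to 12617051, plus strand) encodes the prorenin receptor, a second accessory subunit. Its pair, from 12587354 to 12588212 and from 12587472 to 12588221, had the longest overlap of any member pair, 741 bp. Pileups were 35 and 33 fragments and folds 8.93 and 6.31 (mean 7.62 ± 1.85, SD, n = 2). The summits lay 86 and 199 bp downstream of the start, and no other protein-coding gene ends within 1 kb. The other 10 peaks of replicate 1 and 1 of replicate 2 in the window were unpaired.

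**Figure D3:**
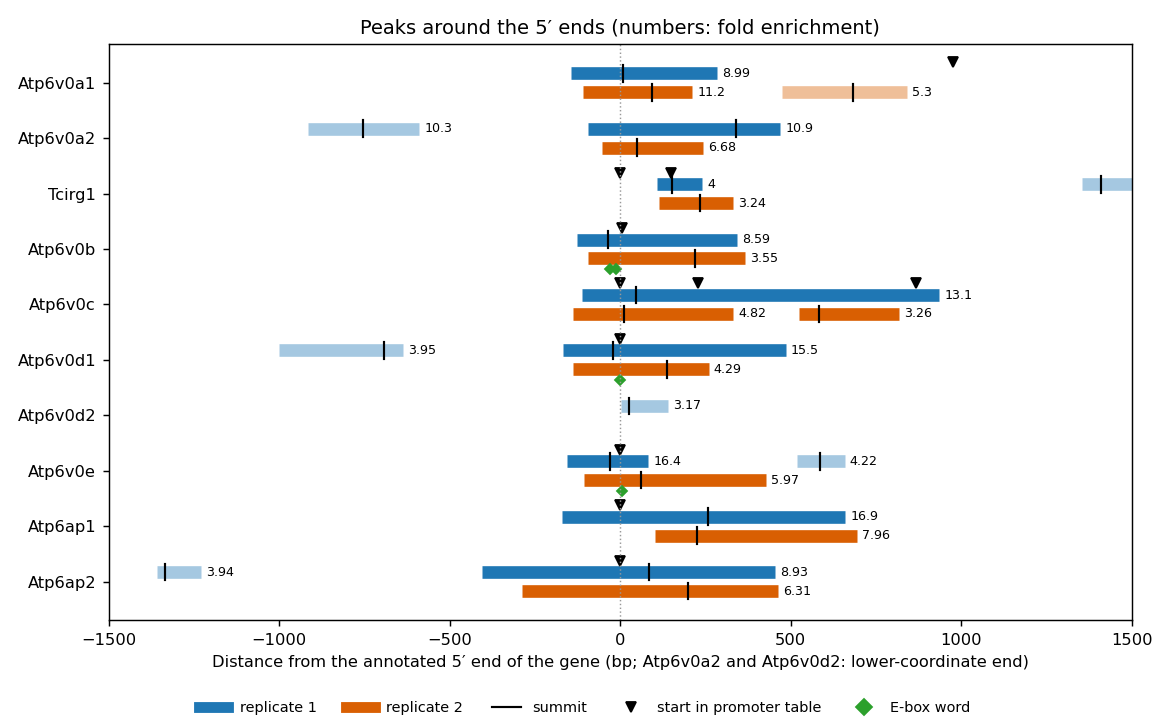
Peaks within 1500 bp of the annotated 5′ end of each gene (horizontal axis, bp; lower-coordinate end for Atp6v0a2 and Atp6v0d2), replicate 1 above replicate 2, with summits as black ticks, fold enrichment as numbers, starts of the promoter table as triangles and E-box words as diamonds; pale bars have no partner. Overlapping peaks of the replicates lie at or near the plotted end in 9 genes. In Tcirg1 both peaks stop short of that end, inside the gene, and in Atp6ap1 the replicate 2 peak begins past it. At its plotted end, which may not be the 5′ end, Atp6v0d2 shows a replicate 1 peak only.

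Across the 21 overlapping pairs of the members, replicate 1 had the higher fold in 18. The exceptions among the member pairs were the start pair of Atp6v0a1 and the pairs away from starts in Tcirg1 (3.74 and 3.90) and beyond Atp6v0b (3.87 and 5.03). The median fold of member peaks that overlapped the other replicate was 8.96 in replicate 1 and 4.91 in replicate 2, against 4.5 and 3.93 for those that did not. The same split over the peaks of all genes is not given here.

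**Figure D4:**
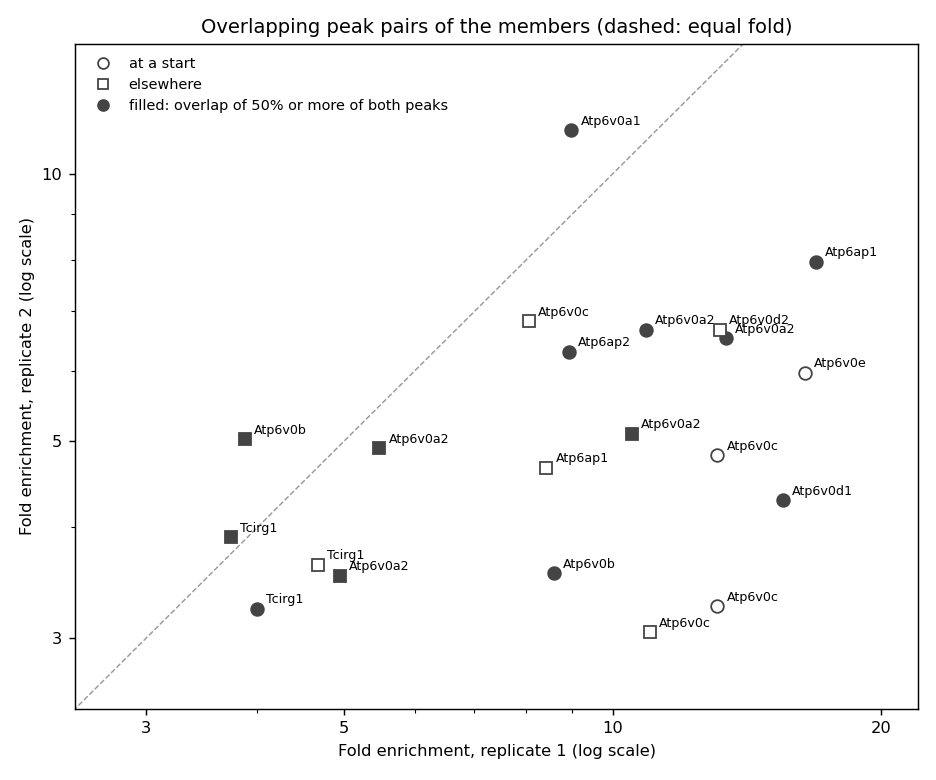
Fold enrichment in replicate 1 (horizontal axis) and replicate 2 (vertical axis), both on log scales, for the 21 overlapping peak pairs over the 10 genes; circles are pairs at a start, squares lie elsewhere, and filled symbols overlap by at least 50% of both peaks. Points below the dashed line, 18 of 21, had the higher fold in replicate 1, and Atp6ap1 had the highest fold among filled symbols in replicate 1.

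The order of the members by fold was not their order by fragments, because the background term differed between the loci. This term was computed as the pileup plus 1 divided by the fold. It follows the larger of a genome-wide and a local estimate, and includes any constant that the peak calling added to that estimate. The lowest value of the term over the autosomes and X was 3.78 fragments in replicate 1 and 5.09 in replicate 2. In replicate 1 its median over the peaks of a member was 11.7 for Atp6v0c, 11.4 for Atp6v0b and 9.23 for Tcirg1. It stayed at 3.78 for Atp6v0d2 and Atp6ap2. Replicate 2 gave its highest median, 9.36, for Atp6v0b, followed by 7.13 for Tcirg1 and 6.97 for Atp6v0c. Thus the start peak of Atp6v0b, with 115 fragments in replicate 1, had more fragments than that of Atp6ap1, with 84, and a lower fold.

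**Figure D5:**
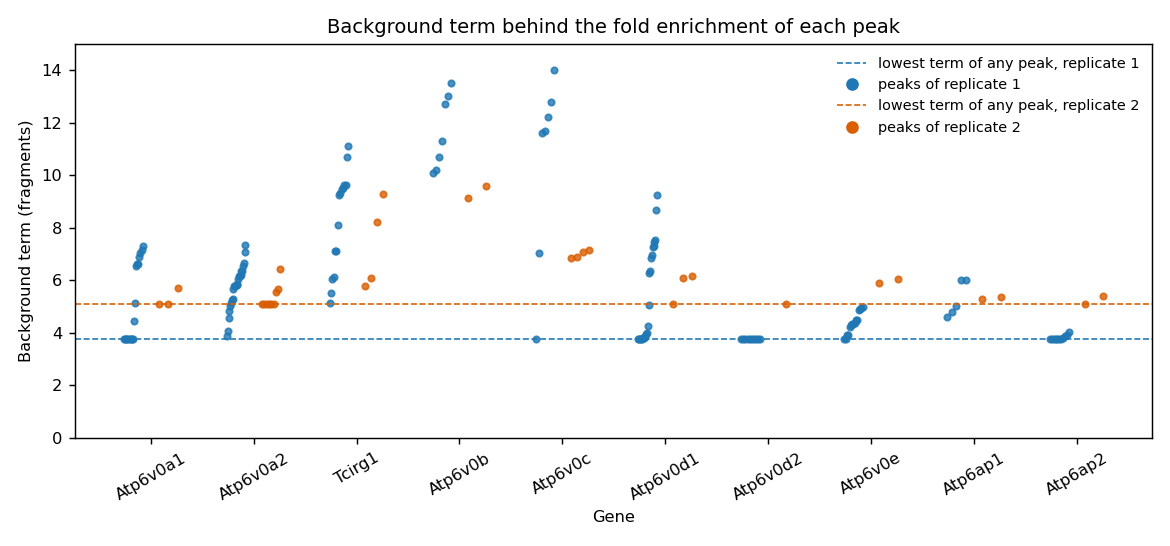
Background term behind each fold enrichment (fragments, vertical axis) for every peak over each gene (horizontal axis), with the lowest term of any peak in each replicate as a dashed line. Peaks of Atp6v0b, Tcirg1 and most of Atp6v0c lie well above the line of 3.78 in replicate 1, while those of Atp6v0d2 lie on it.

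Peak density over the members did not stand apart. In replicate 1 the median was 3.64 peaks per 10 kb against 3.06 over all genes, and in replicate 2 it was 0.72 against 0.62, with 5 of 10 members above the median of all genes in each. The highest densities were those of Tcirg1 in replicate 1 (7.11, at or above 99.2% of genes) and of Atp6v0c in replicate 2 (2.53, at or above 98.7%).

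The other genes of the pump were counted by the same rules. Of all genes, 82.7% had a peak of each replicate in the window and 63.5% had a 50% pair there. Of 8 broadly expressed V1 subunit genes, all had peaks of both replicates, 6 had a 50% pair in the window and 5 had one at a start (62.5%, 24.5 to 91.5%). The strongest were Atp6v1c1, with folds of 18.0 and 9.57, and Atp6v1h, with 15.9 and 8.25, both at a start or gene end. Of 7 isoform genes restricted to certain tissues, 4 had a pair in the window and 2 had one at a start (28.6%, 3.67 to 71.0%). These were Atp6v1c2 (17.5 and 5.93) and Atp6v1g2 (13.3 and 5.78). Of 18 genes for assembly factors and regulators of the pump, 15 had a pair and 11 had one at a start (61.1%, 35.7 to 82.7%). Dmxl1, a subunit of the complex that rejoins V1 to V0, had 21.2 and 8.05, and Lamtor3, part of the Ragulator complex that ties the pump to nutrient signalling, had 17.1 and 8.25. The interval of each list at a start includes the 42.6% of all genes, and the differences between lists were not tested.

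Words known for transcription factors were counted in the promoter windows, which run from 250 bases before to 50 bases from the start onwards, with both strands searched. The 8 members with an entry have 12 windows. The forkhead word TGTTTAC was in 0 of the 12 and in 3.65% of all 32851 windows. The E-box word CACGTG was found in 3 of the 12 member windows (those of Atp6v0b, Atp6v0d1 and Atp6v0e) and in 7.15% of all windows. In Atp6v0d1 and Atp6v0e it was part of the longer word TCACGTGA, the core of the CLEAR element, which 0.974% of all windows hold. All 4 E-box copies, which are in capitals in the sequences above, lay inside a peak of each replicate, as did copies of other words given below. In Atp6v0b they began 36 and 18 bases before the start, and the replicate 1 summit was 6 bp from the middle of the first, while the replicate 2 summit was 249 bp away. In Atp6v0d1 the word began 3 bases before the start, 21 and 137 bp from the summits, and in Atp6v0e it began 3 bases after the start base, 36 and 55 bp from the summits. The GC box word GGGCGG was in 11 of the 12, all but that of Atp6v0d1, and in 35.7% of all windows. Windows of 1 gene can overlap, and some copies are counted in more than 1 window of Tcirg1 or Atp6v0c. The ETS word CCGGAAG was in 2 of the 12 (Atp6v0b and Atp6v0e) and 8.86% of all windows, the PU.1 word GAGGAA in 2 (Atp6v0a1 and Tcirg1) and 28.3%, and the AP-1 word TGANTCA in 1 (Atp6v0a1) and 7.81%. Lying inside a peak of each replicate was not particular to the E-box. It held for the GC box copies of Atp6v0b, Atp6v0c, Atp6v0e and Atp6ap2, the PU.1 copies of Tcirg1 and the ETS word of Atp6v0e. In Atp6v0e a GC box was 13 bp from the replicate 1 summit. It did not hold for the GC boxes of Atp6v0a1, Tcirg1 and Atp6ap1, the ETS word of Atp6v0b or the PU.1 and AP-1 words of Atp6v0a1. A match is a description of the sequence, and no match says only that these letters are absent from the window.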

How the data were processed

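Peak lists of Foxp3 replicates 1 and 2 were used. Per the file headers, the authors called peaks with MACS 2.1.1.20160309 on paired-end fragments, library by library, keeping q-values up to 0.01, with no control library and with all duplicate fragments kept. The deposited pileup is a signal, the fragments over the summit, as counted in its own library. Fold enrichment was deposited as a ratio to a background term of the same library, genome-wide or over 10000 bp. Significance was deposited as −log10 of p-values and q-values. CASAVA 1.4 and mm10 are named per the submitters' processing notes, while for the aligner no name is given in the sources used here.

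Gene positions and starts came from RefSeq tables of GRCm38.p6, whose chromosome coordinates are those of mm10. All 43 genes of the lists matched by symbol, and starts were listed for 17274 of 21631 protein-coding genes. Peaks were assigned to a gene when they touched it or 5000 bp beyond. Pairs needed an overlap of 50% of both lengths, or 1 bp where stated. Counting was done in Python 3.11.15 with pandas 2.3.3 and numpy 2.4.6, and intervals with scipy 1.17.1. The code was tested on simulated data. No test between groups was possible, and the share of all genes is given instead. Every member was named, then the 2 genes of each other list with the highest mean percentile of fold in a pair, and genes ending within 1 kb of a named peak. The members and lists were chosen with earlier results of these data known. Alternatives were other windows, overlaps and thresholds, replicate 1 cut to the peak number of replicate 2, assignment to the nearest gene and each replicate alone.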

Additional observations from a re-analysis of the deposited data

How the results depend on the processing

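The number of members with a 50% pair was 7 with windows of 0, 1, 5 and 10 kb, with peaks of −log10 q of at least 5 and with assignment to the nearest gene. It was 6 when replicate 1 was limited to its strongest peaks by fold or by −log10 q, and 10 with 1 bp overlap. Of all genes, 50.3% and 54.2% had such a pair under those 2 limits. The share was 75.9% with 1 bp overlap and 59.4% with −log10 q of at least 5. For a pair at a start, the share of all genes was 35.2% and 37.9% under the 2 limits on replicate 1, against 6 of 10 members. Over the gene alone, or with 1 kb beyond it, 9 members had peaks of both replicates, Atp6v0d2 being the exception. The number with a pair at a start ranged from 6 (summits within 500 bp) to 9 (1 bp overlap), and was 6 of 8 when the start base itself had to lie inside a peak of each replicate, a rule chosen after seeing the data, which 36.4% of all genes with a listed start met. Using both gene ends for every gene, also chosen afterwards, gave 7. With a single replicate required, the counts ranged from 9 to 10. Of all genes, 96.6% had a peak of replicate 1 in the 5 kb window and 83.0% a peak of replicate 2. No share of all genes is given for the other windows, assignment to the nearest gene, summits within 500 bp or both gene ends. Nor is it given for a single replicate at a start. Those counts therefore do not set the members apart from other genes. The count of replicate 1 peaks fell from 135 to 27 by fold and 28 by −log10 q, by the construction of that limit. For Tcirg1 the strongest pair changed under 1 bp overlap, from a mean fold of 3.82 to 4.15. No paired analysis was possible because no result comes from a test between groups. No peak listed has a pileup below 10 (replicate 1) or 13 fragments (replicate 2).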

Other observations

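Over all 32619 promoter windows on the autosomes and X, 31.7% touched a peak of each replicate. The share was 15.3% of windows with the forkhead word TGTTTAC and 32.3% of those without it. The AP-1 word TGANTCA gave nearly the same values, 15.5% against 33.0%, and the PU.1 word GAGGAA gave 27.3% against 33.4%. The share was higher in windows with the other words: 46.8% against 30.5% for CACGTG, 56.6% against 31.4% for TCACGTGA, 62.1% against 28.7% for CCGGAAG and 65.5% against 12.7% for GGGCGG. Median GC content moved along with these shares, at 47.7% for windows with the forkhead word, 48.3% with AP-1, 52.0% with PU.1, 58.2% with CACGTG, 60.3% with TCACGTGA, 60.7% with ETS and 63.7% with the GC box word, against 53.0% over all windows. The part of GC content in them was not tested. Of the 12 member windows, 8 touched a peak of each replicate. These counts were chosen after the data were seen.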
